A study of Mus musculus with 6 samples.

Results

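Heat shock chaperones were followed through 10 genes, taken by symbol from 50686 gene identifiers in the count files. They comprise the transcription factor gene Hsf1, the 6 cytosolic chaperone genes classed here as inducible (Hspa1a, Hspa1b, Hsph1, Dnajb1, Hspb1 and Hsp90aa1), the constitutive Hspa8, and the mitochondrial pair Hspd1 and Hspe1. All 10 were found by their Ensembl identifiers and all 10 passed the filter on low counts. The measurements were RNA sequencing counts from embryoid bodies of Mus musculus induced pluripotent stem cells (iPSCs), which had been reprogrammed from gingival fibroblasts, treated with retinoic acid and moved to gelatin coated dishes. In the ICF group the attached bodies received an intermittent compressive force of 1.5 g per square centimetre at 0.23 Hz in serum free culture, and RNA was collected at 24 h. The control group was not loaded, and its RNA was also collected at 24 h. The study's methods name the serum free medium with the force treatment and give no other medium for the control. Each group had 3 samples, labelled donor 1 to 3 and called replicates here, whereas the study's methods describe 3 independent experiments, and the p-values measure the spread between these samples. The iPSCs were kept on SNL feeder cells, which were removed by selective trypsin treatment before the embryoid bodies formed.

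Cells answer heat, misfolded protein and other stress with the heat shock response. Heat shock factor 1, the product of Hsf1, is held inactive by chaperones in unstressed cells, forms trimers when they are occupied, and binds repeats of short inverted units called heat shock elements in front of its target genes. The HSP70 proteins fold clients in cycles of ATP use, helped by J-domain proteins and nucleotide exchange factors, HSP90 matures signalling proteins, small heat shock proteins hold unfolded clients, and HSP60 with HSP10 forms the folding chamber of the mitochondrial matrix. Pluripotent cells keep several of these chaperones at a high basal level.

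The upstream sequences of the members show which of them carry the letters of a heat shock element close to the start. RefSeq promoters of GRCm38.p6 were at hand for 7 of the 10 genes, all except Hsf1, Hspa8 and Hsp90aa1, which were not analysed here in this respect. In the 250 bases before each start, GAANNTTC or TTCNNGAA, the 2 arrangements of a pair of inverted units, occurred in 6 of the 7 genes. The same letters occurred in 12.84% of all 32851 promoters in the table and in 14.55% of its 27025 genes. Each form reads the same on both strands, so both strands were covered, and the forms can overlap each other. Dnajb1 held neither form before either of its starts. The capitals below mark these letters, in 125 bases before the start for Hspa1a, Hspa1b and Hspb1 and in 30 bases for Hsph1 and Hspe1, whose windows lie mostly or wholly in annotated exons. The first pair is shown because the upstream regions of Hspa1a and Hspa1b are nearly identical, the others because their element content sets them apart.
Hspa1a, chr17:34972157-34972281, minus strand: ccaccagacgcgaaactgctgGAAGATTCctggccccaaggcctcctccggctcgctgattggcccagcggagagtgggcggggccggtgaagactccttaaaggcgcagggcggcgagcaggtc
Hspa1b, chr17:34959239-34959363, minus strand: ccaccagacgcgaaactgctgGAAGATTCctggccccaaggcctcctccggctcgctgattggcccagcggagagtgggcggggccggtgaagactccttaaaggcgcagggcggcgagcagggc
Hspb1, chr5:135887794-135887918, plus strand: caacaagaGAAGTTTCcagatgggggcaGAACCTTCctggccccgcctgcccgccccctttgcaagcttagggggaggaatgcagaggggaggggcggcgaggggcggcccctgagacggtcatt
Hsph1, chr5:149636351-149636380, minus strand: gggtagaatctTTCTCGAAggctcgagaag
Hspe1, chr1:55088053-55088082, plus strand: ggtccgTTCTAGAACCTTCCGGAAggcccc

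Hspa1a and Hspa1b shared 124 of these 125 bases (99.2%) and 247 of the 250 bases before the start (98.8%), with the element at -104 in both. Hspb1 held 2 elements, at -117 and -97. Hsph1 held 1, at -33 from 1 start and -54 from the other. The run in front of Hspe1 was the longest, with overlapping 2-unit elements at -89, -84 and -79 that together match the 3-unit form, TTCNNGAA followed by NN and TTC on either strand, found in 0.47% of all promoters. Hspd1 and Hspe1 are transcribed away from each other, with 216 bases between the Hspe1 start at 55088148 and an Hspd1 start at 55087932, and both starts look onto the same run. From that Hspd1 start the elements lay at -144, -139 and -134, whereas the other listed Hspd1 start had none in its window. The letters TATAAA, the core of a TATA box and present in 12.37% of all promoters, occurred before no start of the 7 genes. These matches describe letters in a window and were not tested for binding.

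**Figure D1:**
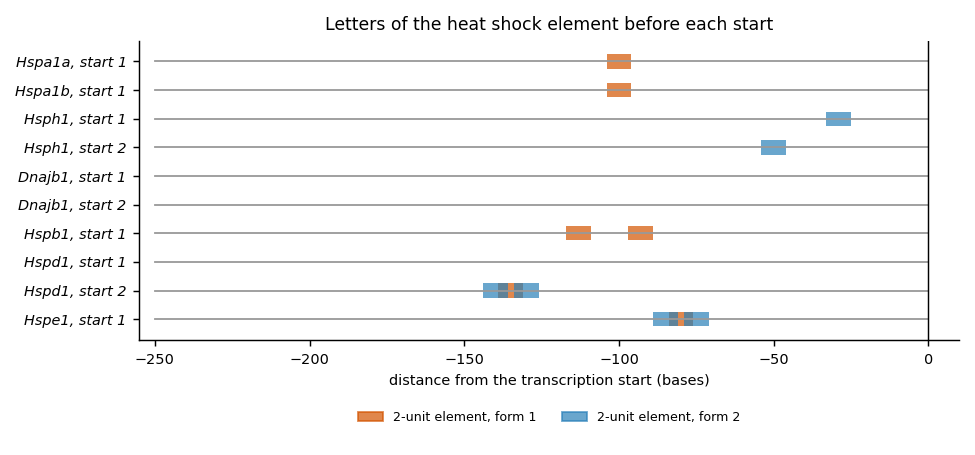
Position of the 2-unit heat shock elements in the 250 bases before each RefSeq start of the 7 genes with a promoter in the table. The x axis is the distance from the transcription start in bases, each line is a start, orange blocks are GAANNTTC and blue blocks TTCNNGAA; Hspd1 and Hspe1 show overlapping blocks of both forms and Dnajb1 shows none.

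Library depth on genes ran from 28711166 to 34194413 counts. ICF replicate 3 stood apart, since 89.0% of its counts above 0 could be divided by 4 (elsewhere 20.3% to 21.5%), and 20802 genes had a count, against 24340 to 24889. Replicates 3 of both groups also deviated together from the others. Results are given with all 6 samples and, where the call differs, without ICF replicate 3 or without replicate 3 of both groups. Pou5f1, the core pluripotency factor, lay between 741 and 883 CPM (counts relative to library size, TMM-normalized) in every sample. Of the 11 pluripotency markers 1 was called lower, Tdgf1, named after its value had been seen, with 620 to 785 CPM in the control and 387 to 453 CPM under ICF (log2FC -0.81, adjusted p = 0.00283, edgeR). Dppa5a, also named after its value had been seen, did not pass (adjusted p = 0.0918, edgeR). Its groups did not overlap, at 604 to 716 and 478 to 581 CPM. Zfp42 was also lower without overlap (log2FC -0.14, adjusted p = 0.197, edgeR). Sall4 was higher without overlap (log2FC 0.12, adjusted p = 0.227, edgeR). The remaining pluripotency markers overlapped between the groups, among them Sox2 with a log2FC of 0.02. The summed level of the 9 fibroblast and feeder markers was 40.4 to 68.6 CPM in the control and 69.2 to 93.4 CPM under ICF, with Lum, Postn and Fap under 1 CPM in every sample and 2 of the 7 tested markers called higher. These 2 were collagen genes, Col1a1 (log2FC 0.75) and Col3a1 (0.73). The markers not called were Col1a2 (0.61), Postn (0.49), S100a4 (0.40), Thy1 (0.07) and Dcn (-0.115). The 10 mesenchyme markers summed to 430.0 to 478.1 CPM in the control and 486.1 to 492.8 CPM under ICF, with 1 of them called higher, Eng (log2FC 0.64, adjusted p = 0.00122, edgeR). Not called were Twist1 (0.39), Cdh2 (0.35), Zeb2 (0.21), Vim (0.14), Prrx1 (0.13), Pdgfra (0.03), Zeb1 (0.03), Snai2 (-0.17) and Snai1 (-0.46). The 11 pluripotency markers summed to 4168.1 to 4991.5 and 3850.4 to 4287.2 CPM, which overlapped. The 6 neural, 5 endoderm and 5 mesoderm and cardiac markers also overlapped in their sums, with no neural marker called. Sox17 was called lower (log2FC -0.34, adjusted p = 0.0445, edgeR), while the other endoderm markers had 0.03 to 0.29. Tnnt2 was called higher (log2FC 1.60, adjusted p = 0.00402, edgeR), with 1.50 to 2.77 CPM in the control and 5.75 to 7.17 CPM under ICF. The other tested mesoderm markers were Hand1 (-0.12) and Kdr (0.02). The part of these differences in the chaperone results was not tested, and in bulk RNA a change in the share of a cell type and a change in RNA per cell cannot be told apart.

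Among the 10 genes, ICF upregulated 3 (Hspa1b, Hsph1 and Hspd1) and downregulated none at an adjusted p of 0.05 in edgeR's quasi-likelihood test. Over all 16729 genes tested 7.85% were called, 3.47% higher and 4.38% lower with ICF. The log2 fold change (log2FC, ICF minus control, given with its standard error as SE) was above 0 in 9 of the 10 genes, with a median of 0.25 where the median of all genes was 0.00. With the replicate number as a block, 6 were upregulated (these 3 with Hsf1, Hsp90aa1 and Hspe1) and none downregulated, when 14.6% of all genes were called higher. DESeq2 called 5 higher, against 5.95% of all genes. In 5 genes every ICF sample lay above every control sample, as it did in 15.6% of all genes. Of the normalized counts, the 10 genes together took 0.610%, 0.646% and 0.682% in control replicates 1 to 3 and 0.734%, 0.731% and 0.759% in ICF replicates 1 to 3. The groups did not overlap in this share. Most of its level came from the abundant Hsp90aa1, Hspa8 and Hspd1, but Hspa8 overlapped between the groups, with means of 2382 and 2466.6 CPM. The larger differences in mean CPM were those of Hsp90aa1 (2193 and 2579.9), Hspd1 (796 and 1009) and Hsph1 (439 and 623), control first.

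**Figure D2:**
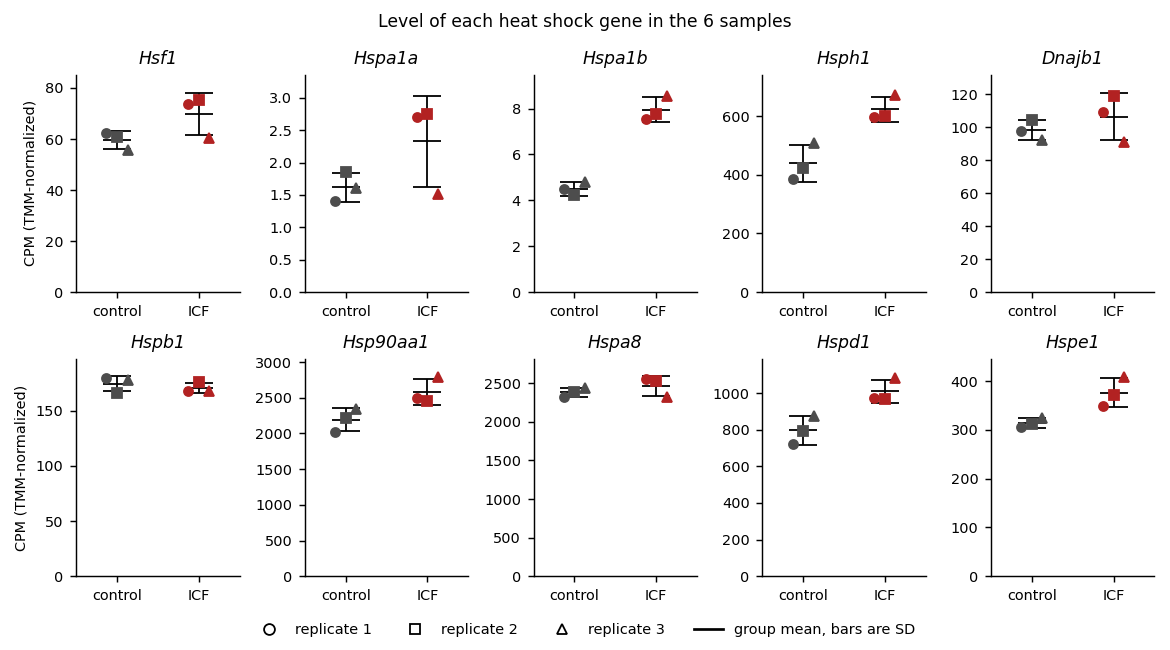
TMM-normalized CPM of each of the 10 heat shock genes (y axis, linear from 0, a scale of its own in each panel) in the 3 control and 3 ICF samples, with the group mean and SD as bars and the replicate number as the symbol. Hspa1b, Hsph1, Hsp90aa1, Hspd1 and Hspe1 show every ICF sample above every control sample. ICF replicate 3 (triangle) lies within or below the control range for Hsf1, Hspa1a, Dnajb1, Hspb1 and Hspa8.

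Levels were compared between genes per length, as mean RPKM (CPM per kilobase of exon) over the 6 samples. Hsp90aa1, the stress-responsive HSP90 of the cytosol, had 607 RPKM and Hspa8, the constitutive HSC70, had 564 RPKM. Their ranges overlapped, at 514 to 709 and 539 to 593 RPKM. Hspd1 followed with 342 and Hspe1 with 234 RPKM, and their ranges also overlapped. Below them came Hspb1 with 168, Hsph1 with 73.1, Dnajb1 with 31.9 and Hsf1 with 9.11 RPKM, each with a range apart from its neighbours. The classical inducible HSP70 genes were lowest, Hspa1b with 2.22 and Hspa1a with 0.665 RPKM, and these ranges did not overlap either. The inducible class therefore held the least abundant of the 10 transcripts and, in Hsp90aa1, one of the pair at the top, whose order was not resolved. For genes with near-identical copies these levels are too low, because reads that align to several places were discarded.

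Hsf1, the regulator, lies at chr15:76477422-76501913. Its level was 62.4, 60.7 and 55.8 CPM in the control and 73.6, 75.1 and 60.3 CPM under ICF. Replicates 1 and 2 with ICF were above all controls, and replicate 3 lay within the control range. The means were 59.7 ± 3.42 and 69.7 ± 8.14 CPM (SD, n = 3), a log2FC of 0.23 (SE 0.11), which did not pass (adjusted p = 0.169, edgeR). With the replicate block it passed (adjusted p = 0.00355, edgeR), and all 3 same-numbered pairs were higher with ICF, by 0.24, 0.31 and 0.11 on the log2 scale. Without ICF replicate 3 the log2FC was 0.33 and also passed (adjusted p = 0.0225, edgeR).

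The 2 inducible HSP70 genes lie close together on chromosome 17, each as a single exon, Hspa1b at chr17:34956436-34959238 and Hspa1a at chr17:34969190-34972156. Hspa1b had 131, 132 and 138 counts in the control and 262, 256 and 248 under ICF. In CPM this was 4.48, 4.22 and 4.80 against 7.54, 7.75 and 8.56, so the ICF samples were all well above the controls. The means were 4.50 ± 0.293 and 7.95 ± 0.538 CPM (SD, n = 3). The log2FC of 0.82 (SE 0.08; adjusted p = 0.00675, edgeR) was the highest among the 10 genes, and the 3 pairs gave 0.75, 0.88 and 0.83. The call was lost without control replicate 2 (log2FC 0.77, adjusted p = 0.052, edgeR) and kept without each of the other 5 samples.

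Hspa1a had fewer reads, with 41, 58 and 46 counts in the control and 94, 91 and 44 under ICF. ICF replicates 1 and 2, at 2.71 and 2.75 CPM, exceeded the controls at 1.40, 1.85 and 1.60 CPM, whereas ICF replicate 3, at 1.52 CPM, lay among them. In that library 89.0% of the counts above 0 could be divided by 4, so its 44 counts may be less precise than their number implies. The log2FC of 0.53 (SE 0.30) did not pass (adjusted p = 0.242, edgeR), nor did it with the block (adjusted p = 0.0785, edgeR). Without ICF replicate 3 it was 0.76 and passed (adjusted p = 0.0373, edgeR). The 2 transcripts are hard to separate, since 54.2% of the 75-base stretches of Hspa1a occur in another gene on the same strand and 52.7% in Hspa1b alone. Gm20481 overlaps 564 bases of the Hspa1a exon on the opposite strand and had 0 counts in every sample. With the 2 genes summed into 1 feature the levels were 5.89, 6.07 and 6.40 CPM in the control and 10.2, 10.5 and 10.1 CPM under ICF. The sum rose by 0.75 on the log2 scale (adjusted p = 0.0048, edgeR), with ICF replicate 3 beside the other 2 ICF samples.

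Hsph1 encodes HSP110, a relative of HSP70 that acts as its nucleotide exchange factor, and lies at chr5:149614287-149636376. Its level was 385, 425 and 507 CPM in the control and 597, 601 and 672 CPM under ICF. Replicate 3 was the highest sample in both groups, and the lowest ICF sample was above the highest control. The means were 439 ± 62.4 and 623 ± 42.1 CPM (SD, n = 3). Hsph1 rose by 0.51 on the log2 scale (SE 0.13; adjusted p = 0.0208, edgeR), and none of its 75-base stretches occur in another gene. The pairs gave 0.63, 0.50 and 0.40. The call was lost without control replicate 1 (0.42, adjusted p = 0.0813), control replicate 2 (0.48, adjusted p = 0.11) or ICF replicate 1 (0.54, adjusted p = 0.0584, all edgeR).

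Dnajb1, encoding the J-domain protein HSP40 that delivers clients to HSP70, lies at chr8:83608193-83612653. It had 97.7, 104.5 and 92.1 CPM in the control and 109, 119 and 90.7 CPM under ICF. The lowest of all 6 samples was ICF replicate 3 and the groups overlapped. The log2FC of 0.12 (SE 0.13) did not pass (adjusted p = 0.51, edgeR). Hspb1, encoding the small heat shock protein HSP25, lies at chr5:135887919-135889563. Its level was 180.0, 167 and 178 CPM in the control and 168, 176 and 168 CPM under ICF. The groups overlapped throughout, and the log2FC was -0.03 (SE 0.04; adjusted p = 0.757, edgeR). Hspb1 shares 47.3% of its stretches with the annotated copy Hsp25-ps1, which had 11 to 19 counts per sample. Hspb1 passed under none of the alternatives. Its upstream region held 2 of the elements shown above, but a link between elements and fold changes was not tested.

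Hsp90aa1 lies at chr12:110690605-110702728 and had 2021, 2215 and 2342 CPM in the control and 2504, 2450.2 and 2785 CPM under ICF. Every ICF sample was above every control sample. The means were 2193 ± 162 and 2579.9 ± 180.0 CPM (SD, n = 3). The log2FC of 0.23 (SE 0.08) did not pass (adjusted p = 0.0947, edgeR). It passed with the replicate block (adjusted p = 0.000189, edgeR) and narrowly with DESeq2 (adjusted p = 0.0465). Of its stretches 53.1% occur in other genes on the same strand, mostly in Gm12346, and with such copies added the log2FC was again 0.23.

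Hspa8, the constitutive HSC70 gene at chr9:40800984-40810087, had 2322, 2382 and 2443 CPM in the control. With ICF it had 2549, 2534 and 2317 CPM. Replicates 1 and 2 with ICF were the highest of the 6 samples and ICF replicate 3 the lowest, so the groups overlapped. The log2FC of 0.05 (SE 0.05) did not pass (adjusted p = 0.65, edgeR). Of its stretches 41.3% occur in 13 other genes on either strand, the largest part in Gm15459. Of its exon bases 6.1% are also those of the small nucleolar RNA genes Snord14c, Snord14d and Snord14e.

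The mitochondrial chaperonin genes lie head to head on chromosome 1. Hspd1, encoding HSP60, is at chr1:55077835-55088243, and its level was 721, 792 and 875 CPM in the control and 976, 969 and 1082 CPM under ICF. All ICF samples were above all controls, and replicate 3 was highest in both groups. The means were 796 ± 77.1 and 1009 ± 63.4 CPM (SD, n = 3). Hspd1 rose by 0.34 on the log2 scale (SE 0.10; adjusted p = 0.0405, edgeR), with pairs of 0.44, 0.29 and 0.31. Leaving out 1 sample ended the call in 5 of 6 cases, with adjusted p-values in edgeR of 0.148 and 0.16 without control replicates 1 and 2 and of 0.0956, 0.0753 and 0.0614 without ICF replicates 1, 2 and 3. The log2FC in these 5 fits was 0.27 to 0.37, and with the block the adjusted p was 9.33e-07 (edgeR). Of its stretches 32.5% occur in the annotated copy Hspd1-ps3, which had 1587, 1885 and 2027 counts in the control and 2712, 2414 and 2512 under ICF. Adding such copies left the log2FC of Hspd1 at 0.34 (adjusted p = 0.0418, edgeR).

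Hspe1, encoding the HSP10 lid of the chamber, is at chr1:55088132-55091307. Its level was 305, 311 and 325 CPM in the control and 349, 372 and 408 CPM under ICF. Here too the groups did not overlap and replicate 3 was highest in both. The means were 314 ± 9.93 and 376 ± 29.9 CPM (SD, n = 3), and the log2FC of 0.26 (SE 0.07) did not pass (adjusted p = 0.0548, edgeR). With the block it passed (adjusted p = 0.0001, edgeR), as with DESeq2 (adjusted p = 0.013). The 2 genes overlap by 112 exon bases on opposite strands, and the libraries were strand-specific.

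**Figure D3:**
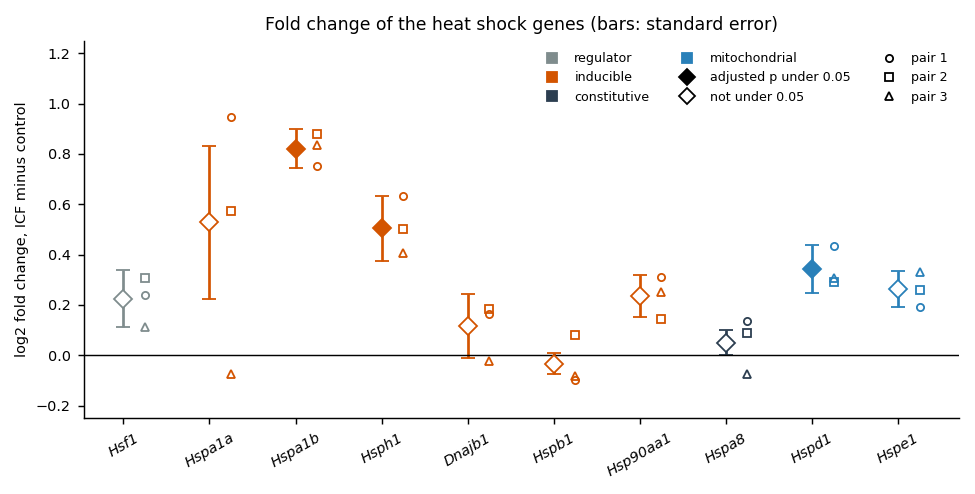
Log2 fold change of the 10 heat shock genes, ICF minus control (y axis), from the edgeR fit (diamonds, filled where the adjusted p was under 0.05, bars are the standard error (SE) from the spread of log2 CPM), with the log2 difference of each same-numbered pair as open symbols and the class as colour. Hspa1b, Hsph1 and Hspd1 are filled, and the inducible genes spread from -0.03 to 0.82.

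The inducible genes were compared with the constitutive and mitochondrial ones by their fold changes, as a description without a test. Of the 6 inducible genes 2 were upregulated, 3 with the replicate block, and their log2 fold changes ran from -0.03 to 0.82 with a median of 0.37. The mitochondrial genes had 0.34 and 0.26, and Hspa8 had 0.05. The median of the inducible genes exceeded that of the other 3 by 0.11, with 0.28, 0.08 and -0.19 in pairs 1 to 3 and an SD of 0.24. The pairs differed in sign, so this difference was within the spread. With Hspa1a and Hspa1b counted as 1 feature it was -0.03.

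Ratios within a sample set partner genes against each other and do not depend on the scaling of the libraries. Hspe1 to Hspd1 sets the 2 parts of 1 chamber side by side, and the other 4 ratios were picked after the values of the members had been seen. Exact two-sided permutation tests were adjusted over the 5 ratios, and 3 samples against 3 cannot give a p under 0.1. Hspe1 to Hspd1 was 0.423, 0.393 and 0.371 in the control and 0.357, 0.384 and 0.377 under ICF, a log2 difference of -0.08 with an SE of 0.06 (exact p = 0.3, adjusted 0.3). These groups overlapped.

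Hspa1b to Hspa8, inducible against constitutive HSP70, was 0.00193, 0.00177 and 0.00197 in the control and 0.00296, 0.00306 and 0.00370 under ICF. The log2 difference was 0.77 with an SE of 0.11 (exact p = 0.1, adjusted 0.1667), and no sample overlapped. Hspd1 to Hspa9, the chaperonin against the mitochondrial HSP70, went from 0.778, 0.818 and 0.908 to 1.09, 1.12 and 1.14, again without overlap. This log2 difference was 0.42 with an SE of 0.07 (exact p = 0.1, adjusted 0.1667). Hsph1 to Hspa4, 2 exchange factors of the HSP110 family, differed by 0.27 with an SE of 0.05 (exact p = 0.1, adjusted 0.1667), also without overlap. Hsp90aa1 to Hsp90ab1, the stress-responsive against the constitutive HSP90, was 0.294, 0.316 and 0.391 in the control and 0.379, 0.362 and 0.469 under ICF. These groups overlapped, and the log2 difference of 0.27 had an SE of 0.17 (exact p = 0.3, adjusted 0.3). These SEs and tests leave the pairing aside. Within pairs 1 to 3 the log2 ratio of Hsp90aa1 to Hsp90ab1 was higher with ICF by 0.37, 0.19 and 0.26, with an SE over the pairs of 0.05, and replicate 3 had the highest ratio in each group. The other ratios of this paragraph were also higher in 3 of 3 pairs, and Hspe1 to Hspd1 in 1 of 3, but no test was made within pairs.

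**Figure D4:**
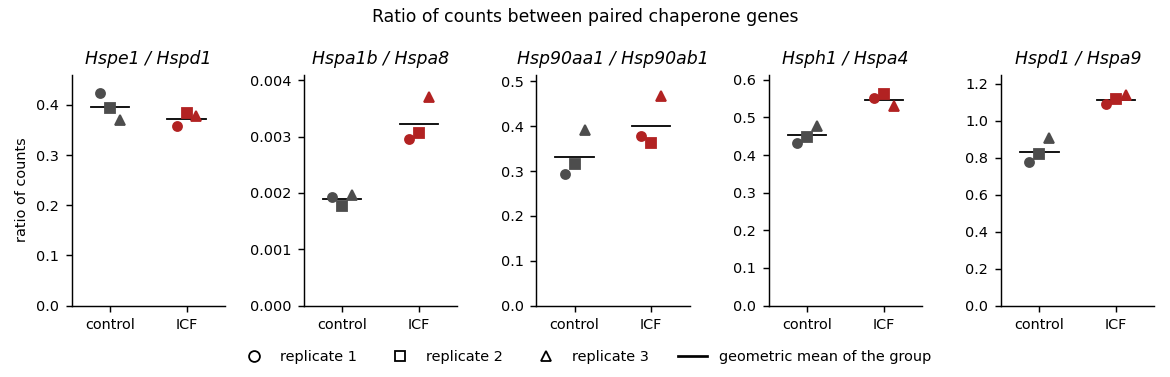
Ratio of counts between 2 chaperone genes (y axis, linear from 0, a scale of its own in each panel) in the 3 control and 3 ICF samples, with the geometric mean of each group as a line and the replicate number as the symbol. The groups separate for Hspa1b to Hspa8, Hsph1 to Hspa4 and Hspd1 to Hspa9 and overlap for Hspe1 to Hspd1 and Hsp90aa1 to Hsp90ab1.

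The other genes of the chaperone network were covered by 9 lists with 105 genes, of which 99 were tested. In the edgeR fit 2 of them rose and 3 fell, when 3.47% of all genes were called higher and 4.38% lower. Of the 99 genes 53 had a log2 fold change above 0, with a median of 0.01. The block gave 19 that rose and 11 that fell, when it called 14.6% of all genes higher and 15.3% lower. The counts of each list below are to be read beside these shares. The higher edgeR calls numbered 0 without control replicate 1 or 2 or without ICF replicate 1 or 2, and 6 without control replicate 3. The lower ones numbered 1 without control replicate 1 or 2 or ICF replicate 1, and 5 without ICF replicate 3. Hsf3, Hspa1l, Hspb3, Hspb7, Hspb9 and Cryaa had too few counts to be tested. Without a set test, these counts and medians only place the 10 genes beside their partners.

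Among the 9 tested heat shock factors and regulators of HSF1 the median log2 fold change was 0.13, and 1 gene passed. Eef1a1, a translation elongation factor that has been linked to HSF1 activation, had 6030, 5709 and 5572 CPM in the control. With ICF it had 4149.8, 4177 and 3692 CPM, all below the controls. It fell by 0.53 on the log2 scale (SE 0.07; adjusted p = 0.00332, edgeR), and how many of its reads are shared with other genes was not counted. Hsf2, the second heat shock factor, lay between 89.8 and 99.8 CPM in all 6 samples (log2FC -0.00, adjusted p = 0.978, edgeR), a value looked up after the others had been seen.

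None of the 7 tested genes of the HSP70 and HSP110 family passed, with a median of 0.13 and 3 higher with the replicate block. Hspa4, the most abundant per length, had 966 ± 86.5 CPM in the control and 1139.9 ± 112 CPM under ICF (SD, n = 3). Its log2FC was 0.24 (SE 0.11; adjusted p = 0.136, edgeR), and it passed with the block (adjusted p = 0.000189, edgeR). Hspa14 had 147 ± 7.56 and 157 ± 3.33 CPM (SD, n = 3) and a log2FC of 0.10.

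The 12 cytosolic J-domain genes, which start the HSP70 cycle, had a median of 0.07 and none passed. With the block 3 rose and 1 fell. The most abundant per length (mean RPKM) were Dnajc8, with 278 ± 10.9 and 269.9 ± 20.5 CPM, and Dnaja2, with 311 ± 9.02 and 322 ± 3.90 CPM (SD, n = 3). Dnaja1, named after its value had been seen, had the highest log2FC of the list at 0.35, with 246, 268 and 316 CPM in the control and 328, 336 and 392 CPM under ICF. All its ICF samples were above the controls, and it passed with the block (adjusted p = 9.8e-07, edgeR) but not without it (adjusted p = 0.0762, edgeR). The 9 nucleotide exchange factors and HSP70 partners had a median of -0.00, none passed, and 1 fell with the block. In this list St13 had 539.8 ± 10.9 and 582 ± 15.5 CPM and Bag1 127 ± 7.19 and 127 ± 4.70 CPM (SD, n = 3).

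HSP90 and its co-chaperones numbered 14, with a median of 0.08. Ppid, encoding a cyclophilin that binds HSP90, had 280.2, 283 and 296 CPM in the control and 333, 330.2 and 352 CPM under ICF. All ICF samples exceeded the controls, and Ppid rose by 0.24 on the log2 scale (SE 0.04; adjusted p = 0.0378, edgeR). With the block 6 genes of this list rose, Ppid, Stip1, Ahsa1, Chordc1, Ppp5c and Unc45a, and none fell, when 14.6% of all genes were called higher. Hsp90ab1, the abundant constitutive HSP90, lay at 6864, 7008 and 5987 CPM in the control and at 6600.2, 6774 and 5944 CPM under ICF, with a log2FC of -0.04 (adjusted p = 0.794, edgeR). Replicate 3 was its lowest sample in both groups.

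The small heat shock proteins had 4 tested genes of 8 and none passed, with a median of -0.06. Hspb8 had 22.3 ± 1.20 CPM in the control and 22.3 ± 1.34 CPM under ICF, and Cryab 11.4 ± 2.79 and 12.7 ± 1.30 CPM (SD, n = 3). None of the 14 genes of the cytosolic chaperonin TRiC and its partner prefoldin passed, and their median was -0.05. Cct2 had 883 ± 37.1 and 805 ± 13.4 CPM and Cct5 823 ± 61.3 and 728 ± 48.9 CPM (SD, n = 3). With the block 4 of these genes fell (Tcp1, Cct2, Cct5 and Vbp1) and none rose, when 15.3% of all genes were called lower. The mitochondrial chaperonin genes Hspd1 and Hspe1 both rose in that fit. No test of this difference between the chaperonins was made.

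The other 14 mitochondrial chaperones and proteases had a median of -0.04, and 2 fell. Lonp1, the matrix protease that removes damaged protein, had 249, 239 and 222 CPM in the control and 189, 193 and 196 CPM under ICF. It fell by 0.30 on the log2 scale (SE 0.05; adjusted p = 0.023, edgeR). Spg7, a subunit of an inner membrane protease, had 87.0, 81.8 and 77.4 CPM against 62.9, 64.6 and 63.9 CPM and fell by 0.36 (SE 0.05; adjusted p = 0.0127, edgeR). In both genes every ICF sample was below every control sample. Hspa9, which imports and folds matrix proteins with HSP60, had a log2FC of -0.07 (adjusted p = 0.468, edgeR). None of the 14 genes rose, with or without the block.

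Of 16 chaperones of the endoplasmic reticulum 1 rose, and the median was 0.07. Calr, the lectin chaperone calreticulin, had 1311, 1307 and 1329 CPM in the control and 1572, 1601 and 1515 CPM under ICF, without overlap. It rose by 0.25 on the log2 scale (SE 0.02; adjusted p = 0.0273, edgeR). Hspa5, the reticulum's HSP70, had a log2FC of 0.07 (adjusted p = 0.541, edgeR). With the block 5 genes of the list rose and 1 fell.

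**Figure D5:**
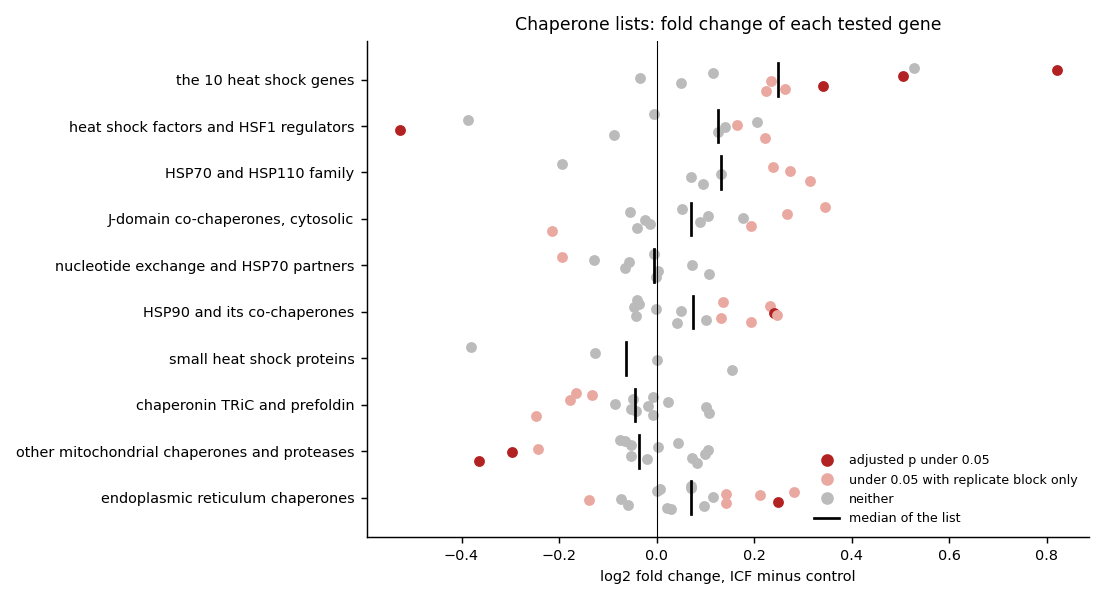
Log2 fold change, ICF minus control (x axis), of every tested gene of the 10 heat shock genes and the 9 wider chaperone lists (lines on the y axis), with dark red for an adjusted p under 0.05 in the edgeR fit, light red for the replicate block only, and a black bar at the median of each list. The 10 heat shock genes have a median of 0.25 and the other lists medians from -0.06 to 0.13.

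The profile of the inducible genes over the 6 samples was taken as the mean of their standardized log2 CPM. Hspa1b followed it with r = 0.883, Hsph1 with 0.845, Hspa1a with 0.796, Hsp90aa1 with 0.693 and Dnajb1 with 0.580, whereas Hspb1 gave -0.138. Each gene is itself part of the mean. Among 11905 other genes with at least 100 counts on average, Mrps7, Pex26, Tatdn2, Txlna and Zfp868 were most like it, with r of 0.991, 0.991, 0.989, 0.989 and 0.989. They are the best of many over only 6 samples that share the group difference, and none of them passed the edgeR threshold on its own, with log2FC values of 0.13 to 0.27.

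Without replicate 3 of both groups, 9 of the 10 genes passed in the direction of ICF, when 14.6% of 16893 genes were called higher. Hspa1a had a log2FC of 0.74 (adjusted p = 0.005, edgeR), Dnajb1 of 0.17 (adjusted p = 0.0236, edgeR) and Hspa8 of 0.11 (adjusted p = 0.0486, edgeR) in this fit of 2 against 2 samples. Hspb1 was the member that did not pass. Without ICF replicate 3 alone, 4 genes passed (Hsf1, Hspa1a, Hspa1b and Hsph1), against 3.73% of all genes called higher. Hspa1b and Hsph1 were the members called in the fit of all samples, in both of these fits and with the block.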

How the data were processed

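RNA was sequenced from 3 ICF and 3 control samples as strand-specific single reads of 75 bases. By the study's methods, the authors used Trimmomatic for filtering, HISAT2 for mapping and HTSeq for counting, which drops reads aligned to several places. The deposited values are these whole-number counts without normalization. Versions other than bcl2fastq 2.19 are not given in the sources used here, and the submitters' processing notes list the builds hg38 and GRCm38. Names and coordinates came from GENCODE M21 (GRCm38), which named 50376 of the 50686 identifiers in the count files, and promoters from RefSeq (GRCm38.p6).

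Counts were fitted in R 4.3.3 by the quasi-likelihood test of edgeR 4.0.16 over 16729 genes that passed filterByExpr, after TMM scaling, and p-values were adjusted by Benjamini-Hochberg over all of them (threshold 0.05). DESeq2 1.42.0, the study's tool, was an alternative. Others were RLE size factors, low-count filters (a looser 1 with any count of 1 or more, a stricter 1 with 10 counts throughout), a block for the replicate number, replicate 3 as a batch or left out, ICF replicate 3 counts divided by 4, Hspa1a and Hspa1b summed, differences of mean log2 CPM (pseudocount 0.5) and each sample left out. Standard errors come from the SDs of log2 CPM, not from the fit. RPKM used the union of exons. Shared reads were counted as 75-base stretches of the longest transcript found in other annotated transcripts.

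The labels number the samples of each group as donors 1 to 3. The numbers were taken as pairs. Over 11925 genes, deviations from the group means correlated between samples with the same number (r of 0.37, 0.37 and 0.67). For differing numbers r was -0.60 to 0.57. Control replicate 1 with ICF replicate 2 gave 0.57 and control replicate 2 with ICF replicate 1 gave 0.41, both above 0.37. The correlations thus set replicate 3 apart but do not match replicates 1 and 2 by number, so their pairing rests on the labels alone. The members and lists were chosen with earlier results of these data known. All 10 members were named. Of each wider list the genes past the threshold were named, or the 2 most abundant per length where none passed, and other names serve as comparisons or are marked as chosen after their values were seen. The fitting step was tested on simulated counts with 2 sizes of planted change. It found every gene of the larger size but missed a sizeable part of those of the smaller, and its pass rule, which at first asked for nearly all genes of both sizes, was loosened for the smaller after that result. The simulation gave all genes the same setting for spread, planted changes only in well-counted genes and left out the deviations of replicate 3. The share it found therefore need not hold for the members. Most members had fold changes below the smaller size, so a member that did not pass may still have changed.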

Additional observations from a re-analysis of the deposited data

How the results depend on the processing

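Across 17 alternatives with a test per gene no member changed direction and none was called lower. The count of members called higher, 3 of 10, was 5 with DESeq2, 6 with DESeq2 and the replicate block, 5 with the filter of at least 1 count, 6 with the replicate block alone, 9 without replicate 3 of both groups, 6 with replicate 3 as a batch, and 0 to 4 with 1 sample left out. It was 0 without control replicate 2 and 1 without control replicate 1 or ICF replicate 1. In the wider lists the 2 genes called higher became 5, 13, 5, 19, 18 and 23 under the same 6 settings and 0 to 6 with 1 sample left out. The 3 called lower became 5 with DESeq2, 10 with DESeq2 and the block, 11 with the block, without replicate 3 and with replicate 3 as a batch, and 1 to 5 with 1 sample left out. Over all genes, 580 higher became 877 with DESeq2, 1354 with DESeq2 and the block, 2445 with the replicate block, 2466 without replicate 3 and 2823 with it as a batch (85 to 724 with 1 sample left out). The 733 lower became 1666, 2561, 2627 and 2876 under the last 4 of these (215 to 928). The causes were not tested. The block took up what same-numbered samples share and changed the calls of Hsf1, Hsp90aa1 and Hspe1 and of no other member. Hspa1b passed in 15 of 16 alternatives, Hsph1 in 14 of 17 and Hspd1 in 12 of 17. Summing annotated copies, an alternative chosen after seeing the data, left 3 members called. The Hspe1 to Hspd1 ratio stayed between -0.14 and -0.03 on the log2 scale, and the class difference between 0.02 and 0.17, except for -0.03 with Hspa1a and Hspa1b summed. Hspa1a had 41 to 94 counts per sample and was not called with ICF replicate 3 divided by 4 either (log2FC 0.63, adjusted p = 0.101, edgeR).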
